A study of Homo sapiens with 20 samples.

Results

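TDO2, AFMID, KYNU, QPRT and MAOA, 4 enzymes of the route from tryptophan through kynurenine and 1 enzyme of amine breakdown, were described on 20 Affymetrix arrays of U-87MG cells. They were chosen by name, as the probe sets that carry exactly 1 of these symbols. The rule found 5 probe sets, 1 for each of the 5 genes, among 11282 measured genes. U-87MG is an established human glioblastoma line, grown here in a serum-containing medium free of phenol red, and all arrays came from this line. Cells were exposed for 24 h to 40 µM I3P (indole-3-pyruvic acid), 40 µM HPP (hydroxyphenylpyruvic acid), 40 µM PP (phenylpyruvic acid) or to the solvent DMSO alone, which made up at most 0.2% of any culture. Each of the 4 groups held 5 arrays, labelled as biological replicates 1 to 5. The study set each aromatic keto acid against DMSO and is about activation of AHR, the aryl hydrocarbon receptor, a transcription factor that small molecules switch on.

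Tryptophan is broken down mainly by opening its indole ring. TDO2 (tryptophan 2,3-dioxygenase) carries out that first step and yields N-formylkynurenine, and AFMID (arylformamidase) removes the formyl group to give kynurenine, itself a ligand of AHR. KYNU (kynureninase) cleaves kynurenine and its hydroxylated form to anthranilic acids, and QPRT (quinolinate phosphoribosyltransferase) turns quinolinic acid, a later product, into a precursor of NAD. MAOA (monoamine oxidase A), a flavin enzyme of the outer mitochondrial membrane, oxidises serotonin, itself made from tryptophan, and other amines. I3P is a different product of tryptophan, formed by removal of its amino group, while HPP and PP are the corresponding keto acids of tyrosine and phenylalanine.

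In GRCh38.p14, TDO2 lies on chromosome 4 (155903696 to 155920406), AFMID on chromosome 17 (78187362 to 78207702), KYNU on chromosome 2 (142877664 to 143055833), QPRT on chromosome 16 (29679008 to 29698699) and MAOA on chromosome X (43655006 to 43746817). The 250 bases before a RefSeq start of each were searched on both strands for GCGTG. This is the core of the sequence that AHR and its partner ARNT bind, and no other motif was searched. For MAOA the start lies inside the span given, as does 1 of the 2 starts of QPRT. The core was found 1 time for AFMID and in neither TDO2, KYNU, MAOA nor either window of QPRT, which has 2 starts. Of all 27305 promoter windows of this length 31.9% held it, as did 45.3% of the 9193 windows of measured genes. The windows of 3 of the genes are shown. They are AFMID with the only match, KYNU, which varied most with its biological replicate, and TDO2, the first enzyme of the pathway. The AFMID stretch is the part of its window, chr17:78187205-78187361, that lies outside the neighbouring gene TK1, which is read in the opposite direction. The others are chr2:142877414-142877663 and chr4:155903446-155903695. All are on the plus strand, 5′ to 3′, from RefSeq, and capitals mark the core, which reads as its reverse complement in AFMID and begins 15 bases before the start. A match is a description and no site, and a window without it says nothing about the factor.
AFMID: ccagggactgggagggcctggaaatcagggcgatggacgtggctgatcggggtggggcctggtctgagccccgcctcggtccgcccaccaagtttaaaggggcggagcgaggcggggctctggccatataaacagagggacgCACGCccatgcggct
KYNU: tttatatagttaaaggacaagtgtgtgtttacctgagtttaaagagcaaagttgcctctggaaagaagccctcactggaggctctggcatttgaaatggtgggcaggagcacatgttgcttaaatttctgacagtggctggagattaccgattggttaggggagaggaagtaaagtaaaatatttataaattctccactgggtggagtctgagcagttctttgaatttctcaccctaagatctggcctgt
TDO2: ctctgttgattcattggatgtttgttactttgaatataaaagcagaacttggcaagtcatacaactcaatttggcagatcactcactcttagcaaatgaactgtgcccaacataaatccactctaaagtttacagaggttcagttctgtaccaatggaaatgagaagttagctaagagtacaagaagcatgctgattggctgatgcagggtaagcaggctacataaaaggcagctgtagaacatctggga

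Values are log2 expression after the robust multi-array average (RMA), so a difference of 1 is a doubling of signal. Levels of different genes come from different probes and are not set against each other. The array medians lay between 9.23 and 9.28, no pair of arrays was identical, and the number of arrays limits the precision. Of the glial and glioblastoma markers 8 of 10 were in the table, and of the markers of blood, neuronal, epithelial, oligodendrocyte and endothelial cells 10 of 18. The log2 values summed per array to 87.4 to 89.6 over the 8 genes and to 86.9 to 90.2 over the 10. These sums cover different genes and numbers of genes. They are not set against each other and do not show which cells were present. As a check of the treatments, TIPARP, an ADP-ribosyltransferase that AHR induces, was higher than with DMSO by 1.03 with I3P, 0.57 with HPP and -0.07 with PP (limma, adjusted p = 0.0234, 1 and 1; 4.91e-06, 0.0128 and 1 with the replicate block). CYP1B1, a cytochrome P450 induced by AHR, was at 0.79 with I3P, 0.36 with HPP and -0.06 with PP against DMSO. With I3P it passed (limma, adjusted p = 0.0339, and 0.0001 with the block). With HPP it passed in neither fit (limma with the block, adjusted p = 0.324), nor did it with PP. All 6 comparisons were tested with limma over 11282 genes, once without and once with the replicate number as a block. Arrays that share a number tended to deviate in common, and the block alters the error of a difference and not its size. In bulk RNA, fewer cells that carry a transcript and less transcript per cell cannot be told apart.

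The 3 keto acids changed none of the 5 genes past the threshold of 0.05 on the adjusted p. With I3P against DMSO 0 of 5 passed in either fit, where 0.0798% of all genes passed without the block and 0.603% with it. With HPP it was 0 of 5 in both fits, against 0% and 0.0443% of all genes, and with PP 0 of 5, against 0% and 0%. At an unadjusted p under 0.05, I3P had 0 of 5 genes in both fits, HPP 0 without the block and 2 with it, and PP 1 in both. Of all genes, 4.51% without and 11.0% with the block were under that level with I3P, 1.43% and 4.97% with HPP, and 1.54% and 4.25% with PP. A test of any difference among the 4 groups also called 0 of 5 (adjusted p = 1 for each without the block and from 0.566 to 0.953 with it), where 0.0886% and 0.505% of all genes passed. Such low background shares mean that 5 genes chosen by name would rarely hold a call, so the intervals below say more than the counts.

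**Figure D1:**
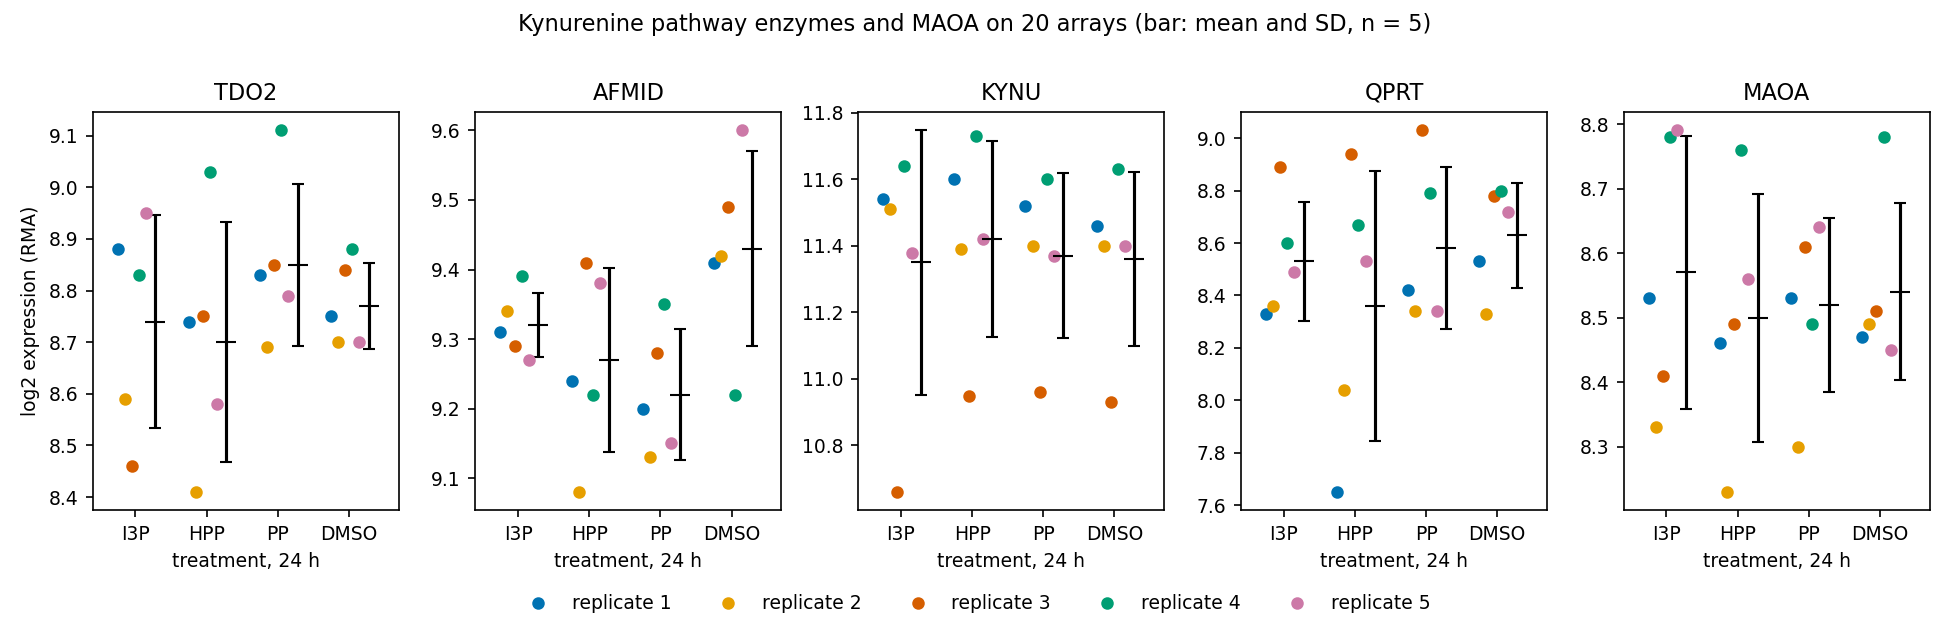
Log2 expression (RMA, vertical axis, own scale for each gene) of the 5 genes by treatment, 1 point for each array coloured by replicate number, with the mean and SD of 5 arrays as a bar. The treatments overlap for every gene, and the points of replicate 3 are the lowest for KYNU and among the highest for QPRT in each treatment.

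TDO2, at the entry of the pathway, kept a similar level under all treatments. In the order of replicates 1 to 5 it was at 8.88, 8.59, 8.46, 8.83 and 8.95 with I3P and at 8.74, 8.41, 8.75, 9.03 and 8.58 with HPP. It was at 8.83, 8.69, 8.85, 9.11 and 8.79 with PP, and at 8.75, 8.70, 8.84, 8.88 and 8.70 with DMSO. The DMSO arrays lay close together and inside the range of every compound, and the HPP arrays spread most. Against DMSO, TDO2 differed by -0.03 with I3P (SE 0.111, adjusted p = 0.999), by -0.07 with HPP and by 0.08 with PP (adjusted p = 1 for both). By limma's 95% intervals a change beyond 1.24-fold either way lay outside the range for any compound, and beyond 1.20-fold with the block. These intervals are per gene and not widened for the number of genes. They bound the change in array signal, which RMA compresses for dim genes. TDO2 lay below the median level of all genes, and QPRT and MAOA below the 25th percentile. The order of the means was PP (8.85 ± 0.157), DMSO (8.77 ± 0.0831), I3P (8.74 ± 0.207) and HPP (8.70 ± 0.232; SD, n = 5 each), and no neighbours in it differed beyond their spread. HPP lay below PP in 5 of 5 same-number pairs, by 0.15 on average (interval with the block -0.33 to 0.03, adjusted p = 0.896). The share of all genes with 5 pairs in one direction was not counted, here or below.

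AFMID, which makes kynurenine, averaged lower than DMSO under all compounds, as did QPRT. It was at 9.31, 9.34, 9.29, 9.39 and 9.27 with I3P and at 9.24, 9.08, 9.41, 9.22 and 9.38 with HPP. It was at 9.20, 9.13, 9.28, 9.35 and 9.15 with PP, and at 9.41, 9.42, 9.49, 9.22 and 9.60 with DMSO. All groups overlap, and DMSO replicate 4, at 9.22, was the lowest DMSO array. The differences from DMSO were -0.11 for I3P, -0.16 for HPP and -0.21 for PP. AFMID lay above DMSO in 1 of 5 same-number pairs under each compound. The difference with PP had the lowest unadjusted p of any of the 5 genes (0.0146 without the block, 0.0118 with it, SE 0.0767 and 0.0725) and an adjusted p of 1 in both fits. The comparisons share their 5 DMSO arrays, so the common direction is not 3 separate observations. Leaving out DMSO replicate 5, the highest array, moved the PP difference to -0.16, and leaving out DMSO replicate 4 moved it to -0.26, with no call in either. The compounds themselves differed by 0.05 (I3P minus HPP), 0.10 (I3P minus PP) and 0.05 (HPP minus PP), and none of these passed.

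KYNU, the enzyme that cleaves kynurenine, had almost the same mean under every treatment and a wide spread within each. It was at 11.54, 11.51, 10.66, 11.64 and 11.38 with I3P and at 11.60, 11.39, 10.95, 11.73 and 11.42 with HPP. It was at 11.52, 11.40, 10.96, 11.60 and 11.37 with PP, and at 11.46, 11.40, 10.93, 11.63 and 11.40 with DMSO. Replicate 3 was the low array of every treatment, and replicate 4 the high one. The differences from DMSO were -0.02 for I3P, 0.05 for HPP and 0.00 for PP. Their intervals reached 1.35-fold without the block, and 1.13-fold with it, the tightest bound of the 5 genes. With the arrays of number 3 left out, the groups stood at 11.52 ± 0.109 with I3P, 11.53 ± 0.157 with HPP, 11.47 ± 0.107 with PP and 11.47 ± 0.107 with DMSO (SD, n = 4 each). I3P was then 0.05 above DMSO (interval with the block -0.07 to 0.17, adjusted p = 0.813). I3P minus HPP was -0.07, I3P minus PP -0.02 and HPP minus PP 0.05, none of them past the threshold.

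QPRT, on the way to NAD, was the least precisely measured of the 5. It was at 8.33, 8.36, 8.89, 8.60 and 8.49 with I3P and at 7.65, 8.04, 8.94, 8.67 and 8.53 with HPP. It was at 8.42, 8.34, 9.03, 8.79 and 8.34 with PP, and at 8.53, 8.33, 8.78, 8.80 and 8.72 with DMSO. HPP replicate 1 at 7.65 was the lowest of the 20 arrays, and lay below 7.94, the lowest mean that any probe set of the deposited table has. QPRT was at -0.27 with HPP against DMSO (SE 0.196, adjusted p = 1; SE 0.115, unadjusted p = 0.0316 and adjusted p = 0.944 with the block). Without HPP replicate 1 that difference was -0.09 without the block and -0.13 with it. With I3P it was at -0.10 and with PP at -0.05, and the intervals against DMSO reached 1.60-fold without the block and 1.43-fold with it, the widest of the 5 genes. Between compounds, I3P was 0.17 above HPP and HPP 0.22 below PP, and these became -0.01 for I3P minus HPP and -0.04 for HPP minus PP without HPP replicate 1. I3P minus PP was -0.05.

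MAOA, the amine oxidase, differed least between treatments together with KYNU, with 4 means that spanned 0.07. It was at 8.53, 8.33, 8.41, 8.78 and 8.79 with I3P and at 8.46, 8.23, 8.49, 8.76 and 8.56 with HPP. It was at 8.53, 8.30, 8.61, 8.49 and 8.64 with PP, and at 8.47, 8.49, 8.51, 8.78 and 8.45 with DMSO. The groups overlap throughout, and DMSO replicate 4 stands above the other DMSO arrays. Against DMSO, MAOA differed by 0.02 with I3P, -0.04 with HPP and -0.03 with PP (SE 0.108, and 0.076 with the block), with bounds of 1.21-fold and 1.15-fold. Without DMSO replicate 4 these differences were 0.08, 0.02 and 0.03. I3P was 0.07 above HPP and 0.05 above PP, and HPP 0.02 below PP, and none passed.

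**Figure D2:**
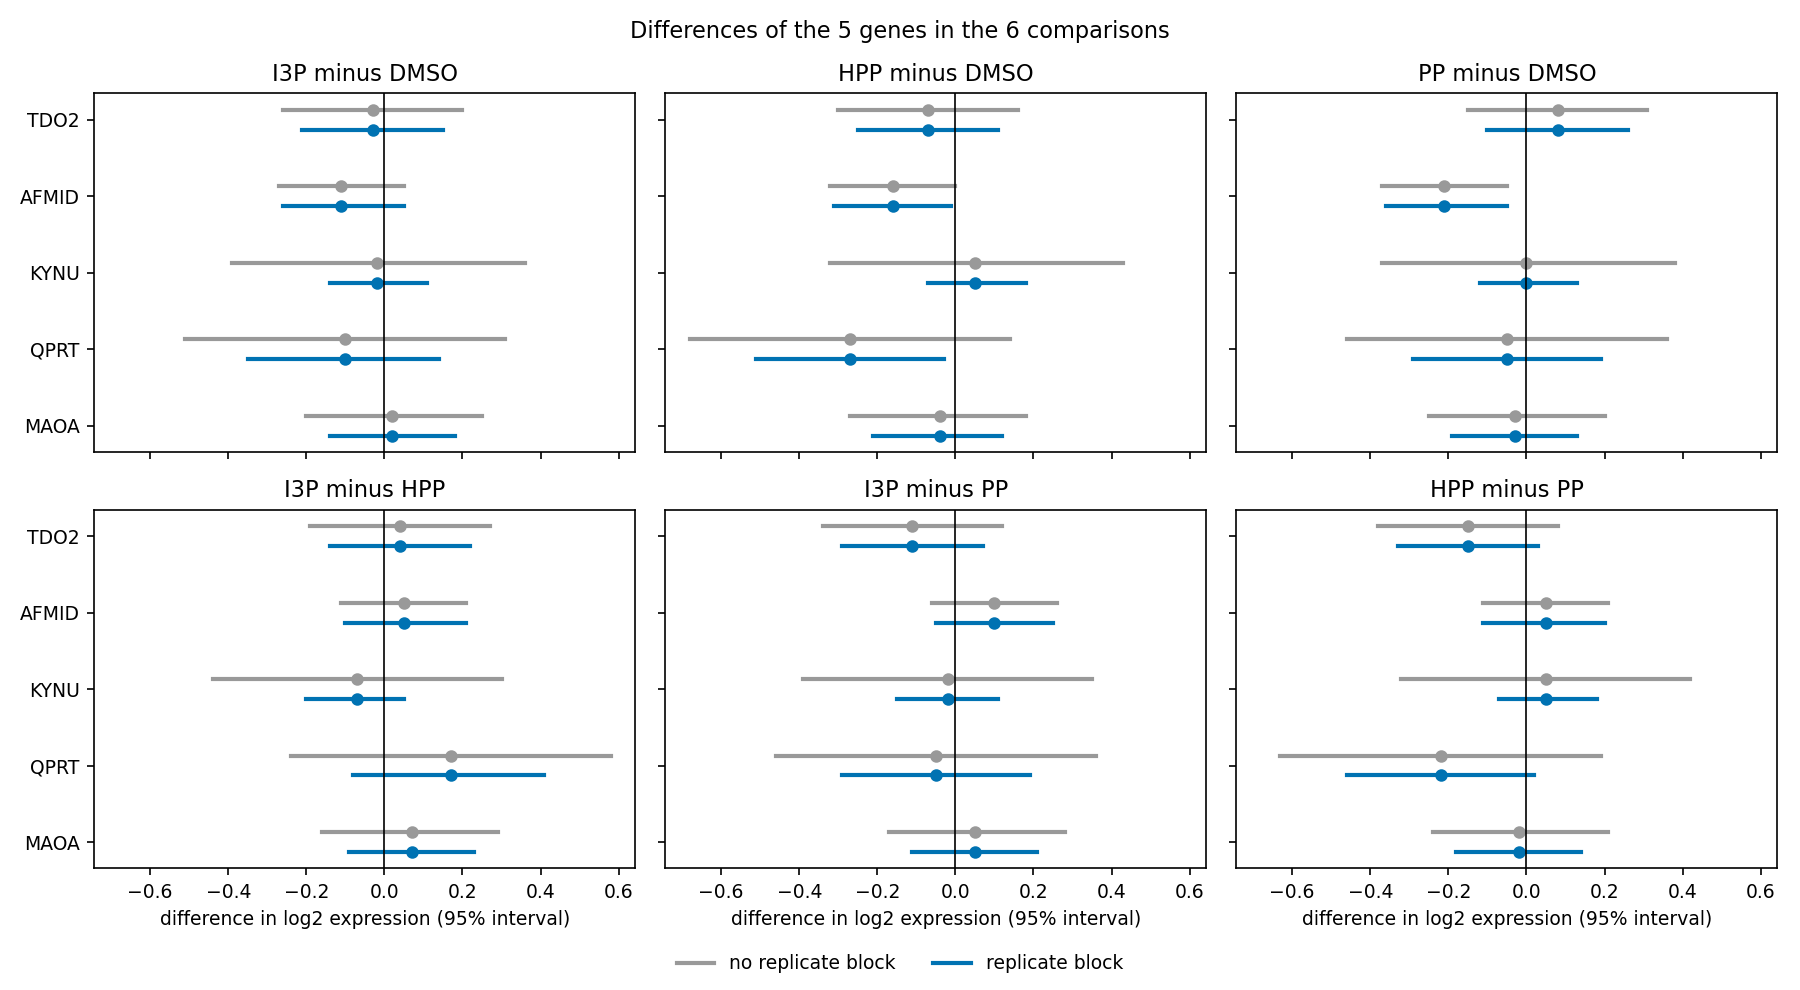
Difference in log2 expression (horizontal axis, first compound minus second or minus DMSO) of each gene in the 6 comparisons, as points with 95% intervals, grey without and blue with the replicate block. The points lie between -0.27 and 0.17, and the 3 intervals that leave out 0 with the block, for AFMID with HPP and PP and QPRT with HPP, belong to differences that did not pass over all genes.

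The direct comparisons of compounds at the same dose and time gave no call either. The side chain is shared and the ring differs, an indole in I3P, a plain phenyl in PP and a hydroxylated phenyl in HPP. For I3P minus HPP 0 of 5 genes passed in both fits, where 0% and 0.115% of all genes did. For I3P minus PP it was 0 of 5, against 0.0886% and 0.904%, and for HPP minus PP 0 of 5, against 0% and 0.0266%. Over these 3 pairs and the 5 genes the smallest adjusted p was 0.999 without the block and 0.603 with it, for AFMID between I3P and PP, which was higher with I3P in 5 of 5 pairs (interval with the block -0.05 to 0.25). A p that misses the threshold does not show that the compounds act alike on these genes; the interval that reached furthest from 0 with the block, that of HPP minus PP for QPRT, ran from -0.46 to 0.02.

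The replicate numbers differed where the compounds did not pass. A test of any difference among the 5 numbers, with the treatment in the model, called KYNU (limma F test, adjusted p = 1.77e-06), QPRT (adjusted p = 0.00162), MAOA (adjusted p = 0.0192) and TDO2 (adjusted p = 0.0452), but not AFMID (adjusted p = 0.612). The number was called for 5251 of 11282 genes, 46.5%, so 4 of 5 is a count of a common pattern and nothing particular to these enzymes. The means of the 5 numbers spanned 0.78 for KYNU, where those of the 4 treatments spanned 0.07. They spanned 0.68 against 0.27 for QPRT, 0.37 against 0.15 for TDO2 and 0.37 against 0.07 for MAOA. Only for AFMID was the span smaller between numbers, at 0.12 against 0.21. A span over 5 means of 4 arrays tends to be somewhat wider than one over 4 means of 5 arrays, even without any effect.

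KYNU had the lowest level in number 3, whose 4 arrays did not overlap the other 16. Number 3 was picked as the lowest, and the share of all genes with such a gap was not counted. The labels do not say what arrays of one number share, so arrays of the same number need not be independent of each other. The 4 arrays of number 3 lay between 10.66 and 10.96 and averaged 10.87 ± 0.145 (SD), and the other 16 lay between 11.37 and 11.73, so that number 3 was lower by 0.63. Number 4 was highest, at 11.65 ± 0.0547, followed by number 1 at 11.53, number 2 at 11.42 and number 5 at 11.39. The extreme numbers thus differed 1.71-fold. With number 3 left out the remaining numbers still differed (adjusted p = 0.0181). Of KYNU's sum of squares within treatments 94.6% lay between numbers, more than for 98.8% of all genes, where the median was 54% and 25% would be expected with no such effect.

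QPRT went the other way in number 3. It averaged 8.91 ± 0.101 there (8.78 to 9.03), against 8.23 ± 0.4 in number 1 and 8.27 ± 0.15 in number 2, a span of 1.60-fold. DMSO replicate 4, at 8.80, and PP replicate 4, at 8.79, were above the lowest array of number 3. Number 3 thus had the lowest mean of KYNU and the highest of QPRT, each against its own other numbers. The difference among numbers stayed past the threshold without any single array, HPP replicate 1 included (adjusted p from 0.000347 to 0.0062), and without any 1 number (up to 0.0351).

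TDO2 and MAOA shared an order at both ends, highest in number 4 and lowest in number 2. TDO2 averaged 8.96 ± 0.132 in number 4 and 8.60 ± 0.135 in number 2, and MAOA 8.70 ± 0.144 and 8.34 ± 0.112 (SD, n = 4). Over the 20 arrays their Pearson correlation was 0.67, and 0.45 after the means of each treatment and number were taken away. The arrays share 5 replicate numbers and one normalisation, so these are descriptions. The call of TDO2 was fragile: it was lost on leaving out any 1 of 14 of the 20 arrays, namely DMSO replicates 1, 4 and 5, HPP replicates 1 to 4, I3P replicates 1 and 2, and all 5 PP replicates, with an adjusted p of at most 0.136, and it rose to 0.307 without number 4. That of MAOA was lost without HPP replicate 2 (0.053), HPP replicate 4 (0.05) or I3P replicate 2 (0.0504), and rose to 0.15 without number 2.

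**Figure D3:**
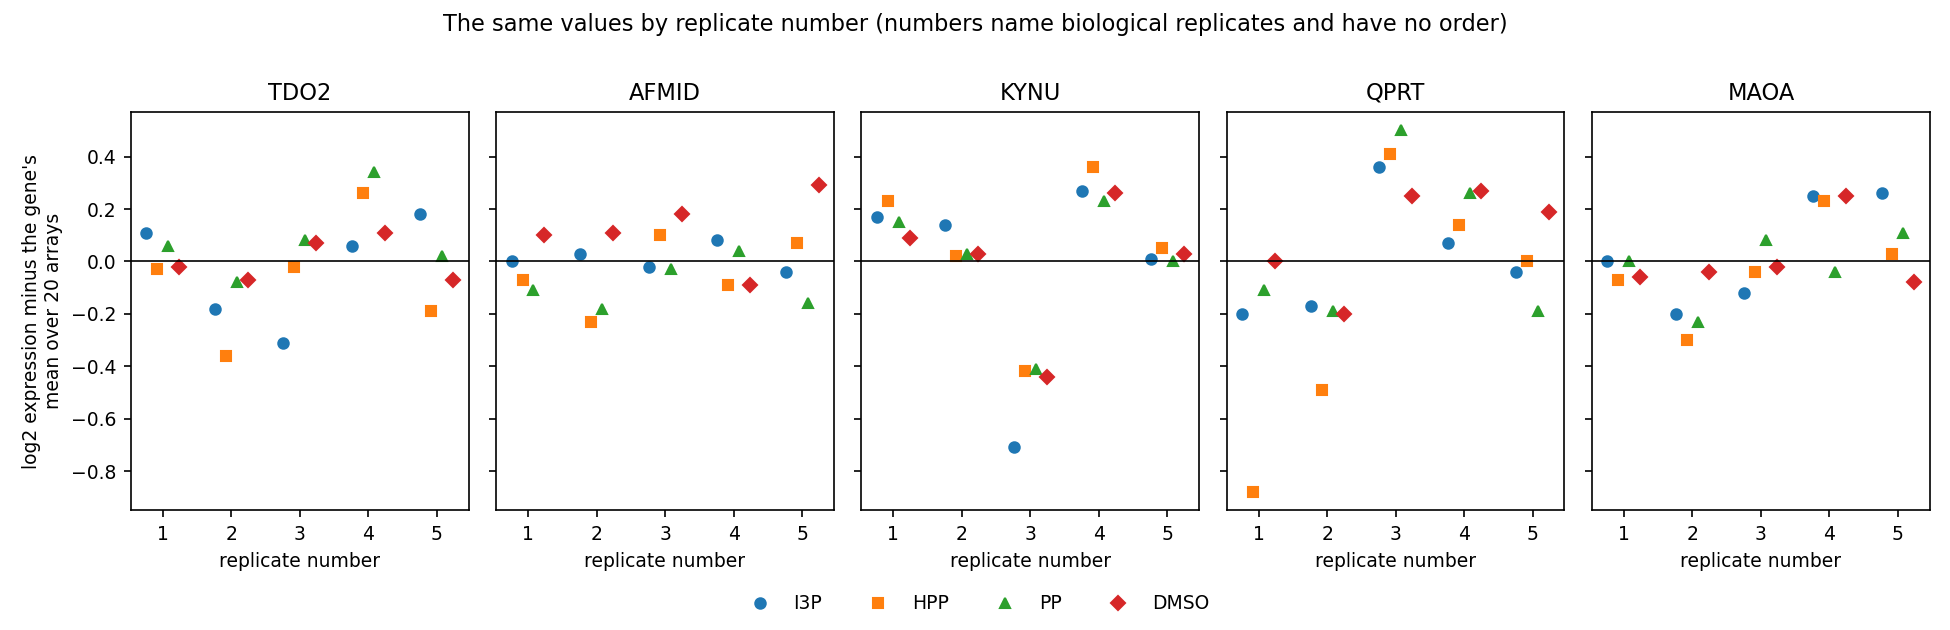
Log2 expression minus the gene's own mean over 20 arrays (vertical axis) by replicate number, with the marker showing the treatment. KYNU lies low in number 3 and QPRT high there under every treatment, TDO2 and MAOA average highest in number 4, and AFMID shows no such separation.

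**Figure D4:**
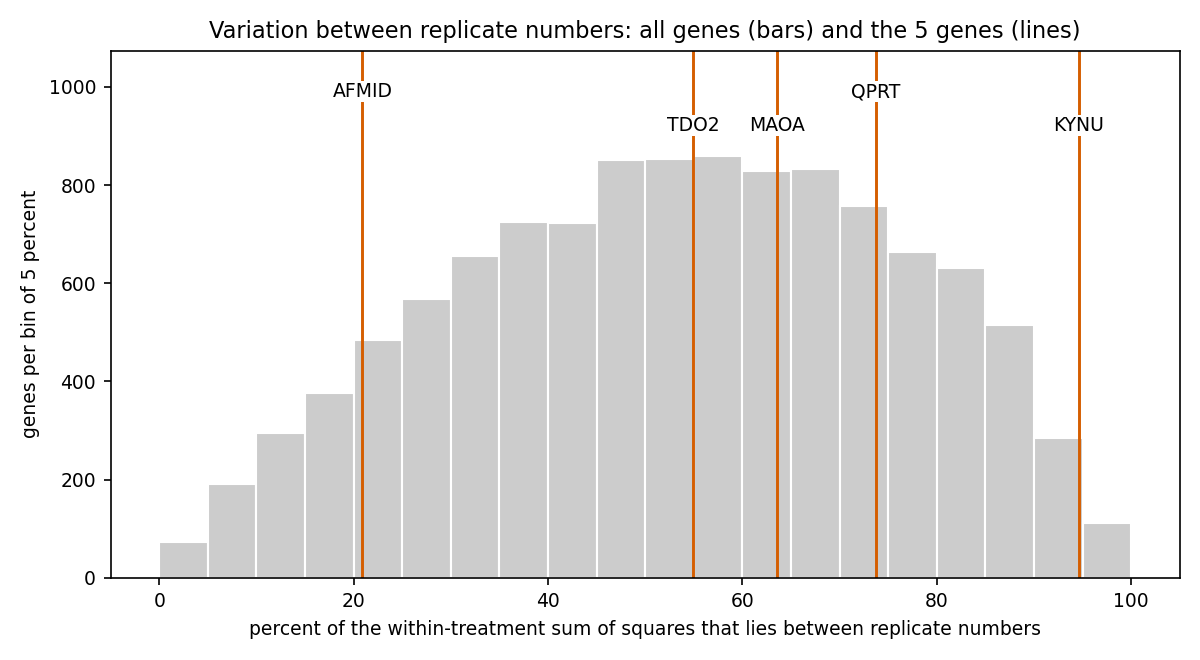
Percent of the within-treatment sum of squares of each gene that lies between replicate numbers (horizontal axis, bins of 5), as the number of genes in each bin for all 11282 genes, with lines at the 5 enzymes. AFMID lies at 20.9, TDO2 at 54.9, MAOA at 63.6, QPRT at 73.7 and KYNU at 94.6.

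The remaining pairs of the 5 genes had correlations over the 20 arrays between -0.48 (KYNU and QPRT) and 0.40 (AFMID and QPRT). After removal of treatment and number means, KYNU and TDO2 stood at 0.60, above the 0.45 of TDO2 and MAOA. KYNU and MAOA were at 0.40, AFMID and KYNU at 0.36 and KYNU and QPRT at 0.01. AFMID and its neighbour TK1, thymidine kinase of the cell cycle, whose starts face away from each other, were at -0.41 and -0.32. Some enzymes that do not neighbour TK1 had correlations with it further from 0. QPRT was at -0.54 and TDO2 at -0.50 as deposited, and MAOA at 0.56 after the means were removed. The rest were nearer 0, with MAOA at -0.28 and KYNU at -0.07 as deposited. After removal QPRT was at -0.27, KYNU at -0.22 and TDO2 at -0.16. TK1 was named after its values were seen, and it differed from DMSO by 0.04 with I3P, 0.12 with HPP and 0.06 with PP, with no call.

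The genes most like each enzyme over the 20 arrays, by Pearson correlation with the values as deposited, were for KYNU PSAP, the precursor of lysosomal saposins, TMEM255B and PHF10, all at 0.95. For QPRT they were LYPD1 (0.88), FLJ32255 (0.85) and LOC730101 (0.85), and for TDO2 ZNF512 (0.81), RUFY1 (0.81) and ZNF57 (0.77). For MAOA they were DLG2 (0.81), FAT2 (0.79) and the retinoid receptor RXRA (0.79), and for AFMID MIR3661 (0.72), GLCE (0.70) and ANKRD54 (0.67). With treatment and number means removed they became BNIP2 (0.92), PHF8 (0.88) and MMGT1 (0.87) for KYNU, and SLC22A5, a carnitine transporter, (0.88), MBNL2 (0.87) and TSPAN7 (0.87) for QPRT. For TDO2 they became TEAD1, a transcription factor, (0.90), SMG8 (0.86) and CNOT6L (0.86). For MAOA they became IPP (0.91), FCGBP (0.82) and ADIPOR1 (0.81), and for AFMID ARMC8 (0.86), GYG1 (0.85) and PIP4P1 (0.84). None of the top 3 genes of a member by the one measure was among its top 3 by the other. Each was picked as the highest over all measured genes, so the values describe these arrays alone.

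Of the 13 genes listed for the kynurenine pathway 8 were measured, and 0 of 8 passed in any of the 6 comparisons in either fit. IDO1, IDO2, KMO, HAAO and ACMSD were not analysed here. The medians of the 8 differences from DMSO were -0.029 with I3P, -0.035 with HPP and -0.024 with PP, where the medians over all genes were within 0.005 of 0. AADAT, an aminotransferase that makes kynurenic acid, and KYAT3, another kynurenine aminotransferase, had the largest differences with I3P. AADAT averaged 9.56 with I3P and 9.69 with DMSO, lower with I3P in 5 of 5 pairs, at -0.13 (adjusted p = 0.999, and 0.449 with the block). Against PP it was at -0.21 and lower in 5 of 5 pairs (adjusted p = 0.128 with the block). KYAT3 stood 0.12 above DMSO with I3P and with HPP and at -0.19 with PP, with a standard error of 0.166. Of the 8 genes, 4 differed among replicate numbers (TDO2, KYNU, QPRT and AADAT), a share near the 46.5% of all genes.

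**Figure D5:**
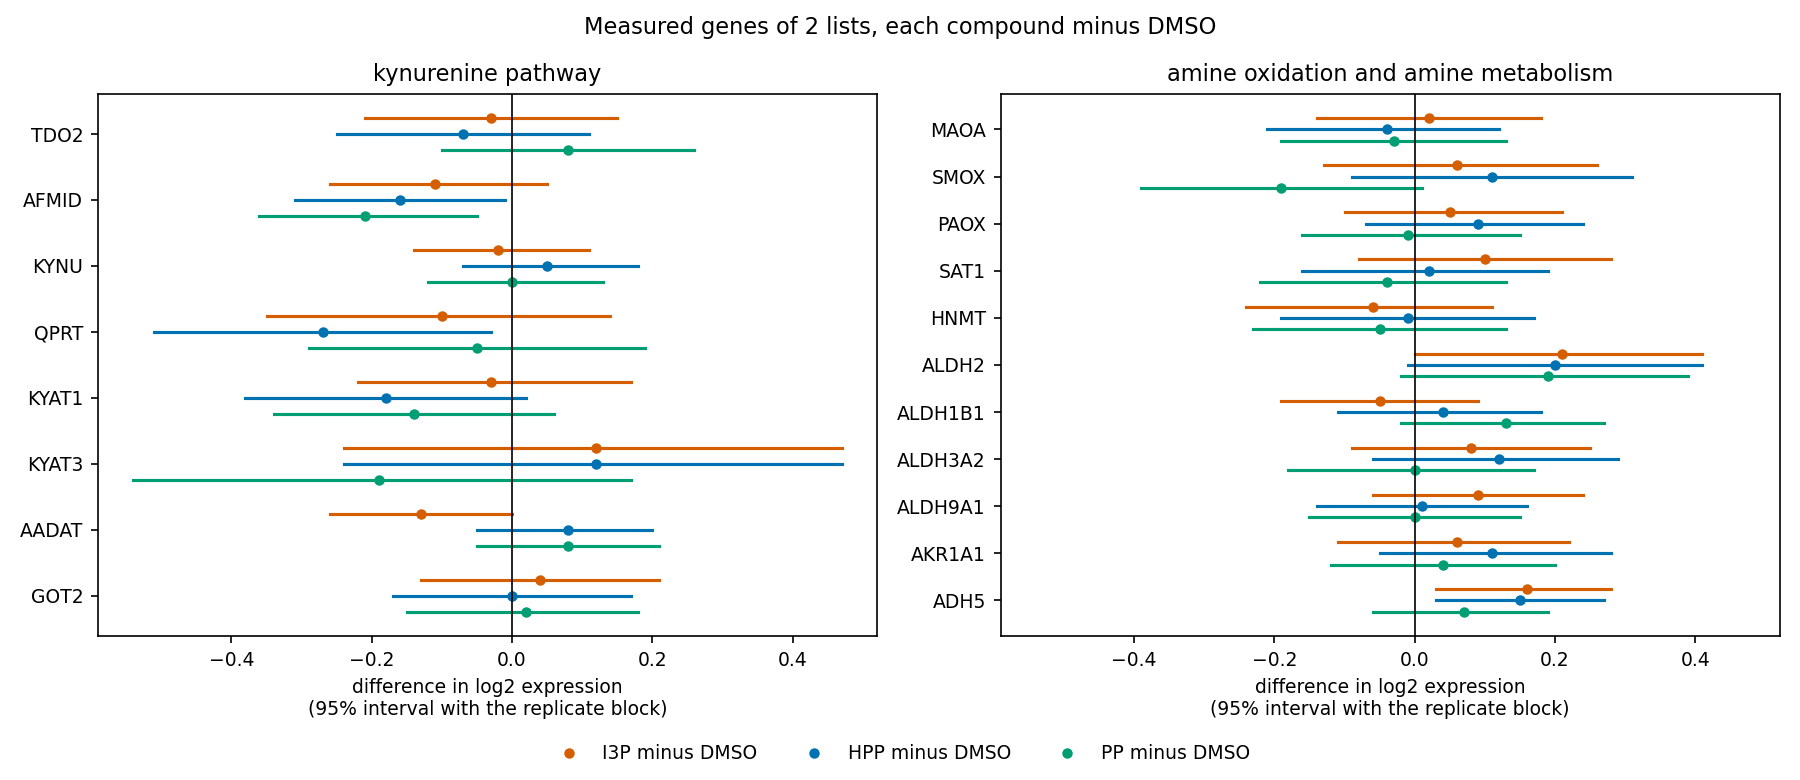
Difference in log2 expression from DMSO (horizontal axis, 95% interval with the replicate block) for the 8 measured kynurenine pathway genes (left) and the 11 measured genes of amine metabolism (right), with I3P, HPP and PP in colour. The points lie between -0.27 and 0.21, and no gene passed over all genes.

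Of the 24 listed genes of amine oxidation and metabolism 11 were measured, and again 0 of 11 passed in any comparison in either fit. Their medians were 0.064 with I3P, 0.089 with HPP and -0.004 with PP, where those of all genes were -0.000, 0.001 and -0.005. Above DMSO lay 9 of 11 with I3P, 9 with HPP and 4 with PP. The share of all genes above DMSO was not counted. All 3 comparisons use the same DMSO arrays, so a common direction is not a repeated observation. ALDH2, the mitochondrial aldehyde dehydrogenase, averaged 8.82 with I3P, 8.81 with HPP, 8.80 with PP and 8.61 with DMSO. Its differences from DMSO were 0.21, 0.20 and 0.19, and the lowest adjusted p was 0.452, with the block for I3P. ADH5, an alcohol dehydrogenase that also handles formaldehyde, averaged 10.53 with I3P, 10.52 with HPP, 10.44 with PP and 10.37 with DMSO, and lay above DMSO in 5 of 5 pairs with I3P and with HPP (adjusted p = 0.311 and 0.944 with the block). These aldehyde and alcohol dehydrogenases act on the products of amine oxidases among other substrates. Of the 11 genes 8 differed among replicate numbers, where 46.5% of all genes did, and nothing particular to the list is read from that count.

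The 9 measured of 12 listed genes of NAD synthesis, the 7 of 8 of the glutarate branch, where the carbon of tryptophan ends, and the 8 of 9 of tryptophan uptake and charging also held 0 calls against DMSO with any compound in either fit. The medians with I3P were 0.066, -0.018 and 0.054. The largest differences with I3P were those of the nicotinamide riboside kinase NMRK2 (0.32) and NMNAT1 (0.13), of ECHS1 (0.08) and HADH (-0.08), and of the amino acid transporters SLC7A8 (0.39) and SLC43A2 (0.32). SLC7A8 alone passed in a direct comparison, with the block, where it was higher with I3P than with PP by 0.58 (adjusted p = 0.0405, and 0.999 without the block). Of the markers of other cell types 0 of 10 passed against DMSO. SYP, a synaptic vesicle protein, was lower by 0.40 with I3P than with PP (limma with the block, adjusted p = 0.0297, and 0.967 without it). Against DMSO, SYP was at -0.15 with I3P and at 0.24 with PP. The other measured neuronal markers, SNAP25 and RBFOX3, were at 0.01 and -0.05 for I3P minus PP. Among replicate numbers 4 of these 10 markers differed, near the 46.5% of all genes, and their part in the differences of KYNU, QPRT, TDO2 and MAOA was not tested.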

How the data were processed

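RNA of 20 samples was measured on Affymetrix arrays. Per the submitters' processing notes, oligo and RMA were used; RMA as a method subtracts background, equalises array distributions and fits one value per probe set. The deposited log2 values were used without further normalisation. Their versions are not stated there, nor is a filter on dim probe sets. RMA compresses changes of dim genes, and the lowest mean of the 12770 probe sets was 7.94.

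Columns were matched to samples by their headers, and groups come from the titles. Of the probe sets, 11316 had 1 symbol, 629 several and 825 none in the platform annotation; 833 symbols were updated through RefSeq of GRCh38.p14 and 33 had no match. For 33 genes with several probe sets the one with the highest mean was kept, which left 11282 genes.

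All 20 arrays were fitted with limma 3.58.1 in R 4.3.3 (lmFit and eBayes, 2-sided, Benjamini-Hochberg over all genes, threshold 0.05), without a block (16 residual degrees of freedom) and with replicate numbers as a fixed block (12). The block was justified by the deviations from group means. All 30 pairs of arrays of the same number and different treatment correlated above 0.1 (0.163 to 0.714, median 0.431). The 120 pairs of different number and different treatment ran from -0.396 to 0.378, with a median of -0.157, so the ranges overlap. Each p-value sets a difference against the residual spread of these arrays. With the block, that is the spread left after the number means are removed as well. The code was tested on simulated data. Figures were drawn with matplotlib 3.10.9.

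The members and gene lists were chosen with earlier results of these data known. Named genes were the 5 members, per list the 2 genes with the largest difference for I3P and any gene of the pathway and amine lists that passed, and the 3 genes most correlated with each member. TK1 and SYP were added after their values were seen, and SNAP25 and RBFOX3 as the other measured neuronal markers. Alternatives were block types, the 10 arrays compared, cyclic loess, equal medians, filters on level, all probe sets, another variance model and leaving out arrays or numbers.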

Additional observations from a re-analysis of the deposited data

Results flagged for a closer look

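In each of the 20 sets of 5 arrays (5 genes by 4 treatments) the highest and lowest array were checked by Dixon's ratio of the gap to the whole range, whose critical value for 5 samples is 0.71. Chance flags about 1 in 20 sets. KYNU in I3P replicate 3, at 10.66, stood apart from the next I3P array at 11.38 with a ratio of 0.733; replicate 3 was also the lowest array with HPP, PP and DMSO. MAOA in DMSO replicate 4, at 8.78, stood above the next DMSO array at 8.51 with a ratio of 0.819; replicate 4 was at 8.78 with I3P and 8.76 with HPP, but at 8.49 with PP, below PP replicates 1, 3 and 5.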

How the results depend on the processing

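None of the 30 differences (5 genes in 6 comparisons) passed under any alternative run; over these the smallest adjusted p was 0.432 for TDO2, 0.456 for AFMID, 0.682 for KYNU, 0.56 for QPRT and 0.622 for MAOA. The fixed replicate block changed no call of the members, nor did the random one. The sign turned under at least 1 alternative for 18 of the 30 differences, none of them called, and 12 kept it, among them AFMID below DMSO with each compound. The difference among replicate numbers stayed past the threshold for KYNU and QPRT under every alternative in which they were tested. For TDO2 its adjusted p was 0.0583 with cyclic loess, 0.0515 with equal array medians and 0.0516 with trend and robust variance, 0.0182 to 0.136 without single arrays and 0.0264 to 0.307 without 1 number. For MAOA it was 0.00489 to 0.053 without single arrays and 0.0167 to 0.15 without 1 number. The filters on level removed QPRT and MAOA at the 25th percentile and TDO2 as well at the median, so those fits give no value for them; 2-group fits give no test among 4 groups. Over all genes, the I3P calls against DMSO numbered 0 to 12 over the settings without the block and 20 to 84 over those with it, and for I3P minus PP 0 to 15 and 23 to 102. Those of HPP minus DMSO numbered 0 and 0 to 6, of HPP minus PP 0 and 0 to 6, and of I3P minus HPP 0 to 1 and 1 to 13. Fits with the block that leave out arrays or numbers were added after the data were seen. With 5 arrays a group, the intervals given limit how precisely each difference is known.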
